A study of Mus musculus and Ictidomys tridecemlineatus with 36 samples.

Results

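Neurod1 is a basic helix-loop-helix (bHLH) TF of neurogenic retinal progenitors and differentiating photoreceptors. It binds DNA at E-boxes, short words that begin with CA and end with TG. Trimethylation of lysine 4 of histone H3 (H3K4me3) marks the start sites of active and poised genes, whereas the monomethylated form (H3K4me1) is typical of enhancers and acetylation of lysine 27 (H3K27ac) of active elements of both kinds. Otx2 is a homeodomain TF that specifies photoreceptors and is expressed together with Neurod1 in their precursors. Most binding of a neurogenic bHLH factor is usually distal, so the Neurod1 peaks that coincide with H3K4me3 are those in which Neurod1 signal at promoters can be sought.

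The Neurod1 peaks described here were chosen by one measure, an overlap of at least 1 bp with an H3K4me3 peak of the same species. They numbered 803 of 4658 Neurod1 peaks in P5 13-lined ground squirrel (13LGS) retina, 17.2% (95% Wilson interval 16.2 to 18.4), and 1215 of 4744 in P2 mouse retina, 25.6% (24.4 to 26.9). They lay at 784 of 18020 H3K4me3 peaks in 13LGS (4.35%) and at 1153 of 14069 in mouse (8.20%), because up to 3 Neurod1 peaks fell in 1 H3K4me3 peak. These counts describe the choice and carry no test. For comparison, 45.4% of the 27993 Otx2 peaks in 13LGS and 43.3% of the 29115 in mouse overlapped H3K4me3.

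The measurements are pooled CUT&RUN peaks of whole retinas. CUT&RUN maps a mark or a protein by cutting DNA around a bound antibody. Each 13LGS replicate pooled retinas from 2 animals and each mouse replicate from 3, with 500000 or 385000 nuclei per reaction. Neurod1 was profiled in 4 libraries per species and Otx2 in 6 for 13LGS and 8 for mouse, while each histone mark had 1 library in 13LGS, all from the same biological replicate, and 2 in mouse. The Otx2 lists combine a pair of antibodies. The authors called 1 peak list per target and species on the pooled libraries against IgG, so that no spread between replicates can be given, no difference between the species or between sets of peaks was tested, and read depth is unknown. Intervals cover counting error only. Whole retina was used, so that fewer cells carrying a peak and less signal in each cell cannot be told apart.

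Sequences around the Neurod1 summit, the position that the deposited list gives as the summit of each peak, are shown for 6 mouse peaks to illustrate where E-boxes lay. These are the peak of highest fold enrichment, in an intron of Cerkl, the promoter peaks of Gnb3, Tpd52 and Neurod1 itself, a promoter peak of the Notch pathway (Hes6) and one of a photoreceptor cilium gene (Mak). They were picked after their values were seen, from peaks whose window holds no annotated exon. Each is 300 bases of the plus strand of GRCm38 with the summit in the middle, and capitals mark CAGATG, its complement CATCTG, and CAGCTG.
Cerkl intron, chr2:79399468-79399767: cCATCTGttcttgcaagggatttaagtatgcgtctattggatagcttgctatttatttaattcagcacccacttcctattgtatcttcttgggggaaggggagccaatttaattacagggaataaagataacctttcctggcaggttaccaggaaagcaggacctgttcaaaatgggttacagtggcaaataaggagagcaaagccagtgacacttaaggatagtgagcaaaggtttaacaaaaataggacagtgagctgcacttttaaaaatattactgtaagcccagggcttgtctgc
Gnb3, chr6:124840577-124840876: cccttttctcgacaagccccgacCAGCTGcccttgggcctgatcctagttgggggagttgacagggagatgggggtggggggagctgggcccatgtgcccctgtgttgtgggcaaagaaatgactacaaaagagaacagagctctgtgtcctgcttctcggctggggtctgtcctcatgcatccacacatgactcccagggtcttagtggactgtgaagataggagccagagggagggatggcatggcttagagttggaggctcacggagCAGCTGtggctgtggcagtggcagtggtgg
Tpd52, chr3:8964216-8964515: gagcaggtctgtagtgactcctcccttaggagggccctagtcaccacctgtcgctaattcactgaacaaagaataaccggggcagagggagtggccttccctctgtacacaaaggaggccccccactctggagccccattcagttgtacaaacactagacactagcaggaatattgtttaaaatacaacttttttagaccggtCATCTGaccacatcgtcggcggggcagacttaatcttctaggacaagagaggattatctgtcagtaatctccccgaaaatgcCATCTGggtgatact
Neurod1, chr2:79456963-79457262: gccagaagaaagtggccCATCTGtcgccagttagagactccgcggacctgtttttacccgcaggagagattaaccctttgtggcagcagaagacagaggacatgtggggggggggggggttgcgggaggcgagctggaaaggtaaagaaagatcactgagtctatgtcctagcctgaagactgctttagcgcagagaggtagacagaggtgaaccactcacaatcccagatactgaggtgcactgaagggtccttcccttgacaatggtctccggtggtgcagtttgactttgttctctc
Hes6, chr1:91413356-91413655: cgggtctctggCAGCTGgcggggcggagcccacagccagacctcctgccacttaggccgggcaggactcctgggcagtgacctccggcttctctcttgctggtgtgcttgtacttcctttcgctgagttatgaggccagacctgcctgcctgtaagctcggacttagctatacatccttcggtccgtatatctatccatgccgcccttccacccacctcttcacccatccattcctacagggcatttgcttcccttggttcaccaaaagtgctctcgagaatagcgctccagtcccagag
Mak, chr13:41078909-41079208: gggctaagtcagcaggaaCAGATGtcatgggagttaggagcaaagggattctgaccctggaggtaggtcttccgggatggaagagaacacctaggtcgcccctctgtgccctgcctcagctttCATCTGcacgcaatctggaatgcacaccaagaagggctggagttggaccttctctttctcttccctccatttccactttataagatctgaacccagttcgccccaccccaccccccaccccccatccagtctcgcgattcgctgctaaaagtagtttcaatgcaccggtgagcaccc

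The marked words sat to the side of the summit. In the Gnb3 window a CAGCTG was centred 124 bp before and another 123 bp after the summit, and the single CATCTG of the Neurod1 window lay 130 bp before it. The CAGCTG of Hes6 lay 136 bp and the CATCTG of the Cerkl intron 146 bp before the summit. Tpd52 had a CATCTG 56 bp and another 138 bp after it. Mak was the exception, with a word 24 bp from the summit beside one at 129 bp.

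The same displacement was seen in the word counts pooled over all 1215 mouse peaks at H3K4me3. Counted on both strands in bins of 50 bp on either side, CAGATG occurred 6.17 times per 100 peaks within 50 bp of the summit, 20.0 times between 100 and 150 bp, and 5.51 times between 450 and 500 bp. CAGCTG occurred 6.91, 22.2, and 5.10 times per 100 peaks in the same bins. The other Neurod1 peaks had the same shape at a greater height for CAGATG, with 12.4, 39.9, and 9.75 words per 100 peaks. Between 150 and 200 bp, CAGATG still occurred 16.7 times per 100 peaks at H3K4me3 and 31.5 times at the others. Windows of 150 bp on either side of the summit, used below, therefore leave out many nearby words. The words were therefore most frequent at some distance from the summit and scarce at it, and the cause of the displacement was not tested.

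Within 150 bp of the summit, 33.7% of the mouse peaks at H3K4me3 (31.1 to 36.5) held CAGATG, compared with 58.5% of the 3529 other Neurod1 peaks (56.8 to 60.1). The shares were closer for CAGCTG, at 35.7% (33.1 to 38.5) and 41.1% (39.5 to 42.8). In windows of the same length, 17.2% of 32851 RefSeq promoters (GRCm38.p6) held CAGATG and 16.3% held CAGCTG. Windows around H3K4me3 summits are centred elsewhere than those around Neurod1 summits, so H3K4me3 peaks are compared with each other. Of the 1153 with Neurod1, 19.8% and 23.9% held CAGATG and CAGCTG, against 11.3% and 15.4% of those without. Any word of the form CANNTG, which includes both, occurred in 82.6% of the peaks at H3K4me3, in 94.5% of the other Neurod1 peaks and in 72.3% of the promoters. TAATCC, the word that Otx2 recognises, occurred in 8.64% of the peaks at H3K4me3 (7.19 to 10.4). Its share was 16.1% at the other Neurod1 peaks and 7.06% in the promoters. Around H3K4me3 summits, TAATCC occurred in 5.46% of the H3K4me3 peaks with Neurod1 and 4.22% of those without. Any CANNTG word occurred there in 69.5% and 61.2%.

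Within the set, CAGATG was most frequent in the third of highest fold and about equal in the others. CAGATG occurred in 46.7% of the 405 mouse peaks of highest Neurod1 fold (41.9 to 51.5), in 27.4% of the middle 405, and in 27.2% of the lowest 405. Base composition also differed between these sets of peaks. The median GC content of the windows was 59.3% at H3K4me3 and 52.0% at the other Neurod1 peaks, and it was 57.3%, 60.7%, and 62.3% from the highest to the lowest fold. The median ratio of observed to expected CG dinucleotides was 0.609 at H3K4me3 and 0.214 elsewhere. The part of base composition in the E-box shares was not tested.

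Neurod1 enrichment at H3K4me3 was modest in both species. The fold enrichment over IgG ranged from 1.57 to 18.6 in 13LGS with a median of 3.35, and from 1.78 to 27.4 in mouse with a median of 3.31. The other Neurod1 peaks had medians of 3.55 and 3.97 and reached 37.1 and 41.6, so the single strongest Neurod1 peak of each species lay away from H3K4me3. The peaks at H3K4me3 were also narrower, with a median width of 280 bp against 314 bp in 13LGS and 391 bp against 429 bp in mouse.

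Most of these peaks lay well inside their H3K4me3 domain. The summit fell inside the H3K4me3 peak for 90.5% in 13LGS and 92.5% in mouse, and 71.4% and 72.2% of the peaks were enclosed entirely. Over the 727 and 1124 peaks whose summit fell inside, the median distance to the H3K4me3 summit was 228 bp in 13LGS and 306 bp in mouse. At the margin of the rule, the smallest overlaps were 3 bp for a 13LGS peak of 4.79-fold and 2 bp for a mouse peak of 2.91-fold. Just outside, a 13LGS peak of 3.72-fold ended 5 bp from H3K4me3 and a mouse peak of 3.38-fold ended 8 bp from it. In all, 17 Neurod1 peaks in 13LGS and 26 in mouse lay less than 200 bp away without overlap.

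Otx2 accompanied nearly all Neurod1 peaks at H3K4me3. In 13LGS, an Otx2 peak overlapped 729 of the 803 (90.8%, 88.6 to 92.6), compared with 56.6% of the 3855 other Neurod1 peaks (55.0 to 58.1) and 62.5% of all Neurod1 peaks. This was a difference of 34.2 percentage points (95% Newcombe interval 31.5 to 36.6). In mouse, the overlap was 1188 of 1215 (97.8%, 96.8 to 98.5), compared with 76.7% of the others and 82.1% of all, a difference of 21.1 points (19.4 to 22.7). Where both TFs had a peak, the median distance between their summits was 76 bp in 13LGS and 83 bp in mouse, slightly larger than the 64 bp and 60 bp at the other Neurod1 peaks. The median Otx2 fold there was 4.38 in 13LGS and 5.50 in mouse, against 3.58 and 4.84 at the others. Across peaks, the Spearman correlation of Neurod1 with Otx2 fold was 0.09 over 729 peaks in 13LGS and 0.17 over 1188 in mouse, against 0.35 and 0.32 at the other peaks. Each fold is a ratio to the IgG of the same species, which both lists share.

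The 27 mouse peaks without Otx2 had Neurod1 folds between 2.42 and 4.70. Over all 1215 the median was 3.31, with quartiles at 2.80 and 4.21. They included the promoters of Kdm1a, a histone demethylase that removes methyl groups from H3K4 (4.70-fold), and of the bHLH factor Neurod2 (4.40-fold, summit 66 bp downstream of the start site). H3K4me1 covered 25 of the 27 and H3K27ac 6, whereas they overlapped 65.6% and 47.4% of all 1215. In 13LGS, 74 peaks had no Otx2. Kdm1a and Neurod2 were singled out after their values were seen.

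With overlaps of at least 1 bp, the H3K27ac share at the 13LGS peaks differed from that of the others by less than the counting error. H3K27ac overlapped 64.3% (60.9 to 67.5) of those at H3K4me3, 63.5% (61.9 to 65.0) of the others, and 63.6% of all Neurod1 peaks, a difference of 0.81 points (-2.89 to 4.39). In mouse it overlapped 47.4% (44.6 to 50.2), compared with 53.9% (52.3 to 55.6) of the others and 52.3% of all, a difference of -6.52 points (-9.76 to -3.26). These differences depended on the overlap asked for. With at least 250 bp shared, H3K27ac overlapped 59.9% and 39.6% in 13LGS, a difference of 20.3 points, and the mouse difference was 3.92 points. This limit applied to H3K4me3 and H3K27ac alike, so every Neurod1 peak narrower than 250 bp counted among the others without H3K27ac. In 13LGS the lower quartile of width was 215 bp at H3K4me3 and 218 bp at the others. Peak width therefore enters the comparison at 250 bp, which cannot show a change in H3K27ac by itself.

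With overlaps of at least 1 bp, H3K4me1 was scarcer at the peaks with H3K4me3. In 13LGS it overlapped 62.6% (59.2 to 65.9), compared with 79.3% of the others and 76.4% of all Neurod1 peaks, a difference of -16.7 points (-20.3 to -13.1). In mouse the values were 65.6% (62.9 to 68.2), 91.9%, and 85.2%, a difference of -26.3 points (-29.2 to -23.5). Many of these overlaps were at the edge of a mark. When the Neurod1 summit itself had to lie inside both histone peaks, the H3K4me1 shares were 49.1% and 51.5%. With at least 250 bp shared, the 13LGS difference turned to 4.11 points, while that of mouse was -14.8 points. Here too, Neurod1 peaks narrower than 250 bp counted among the others without the mark, so peak width enters these differences.

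**Figure D1:**
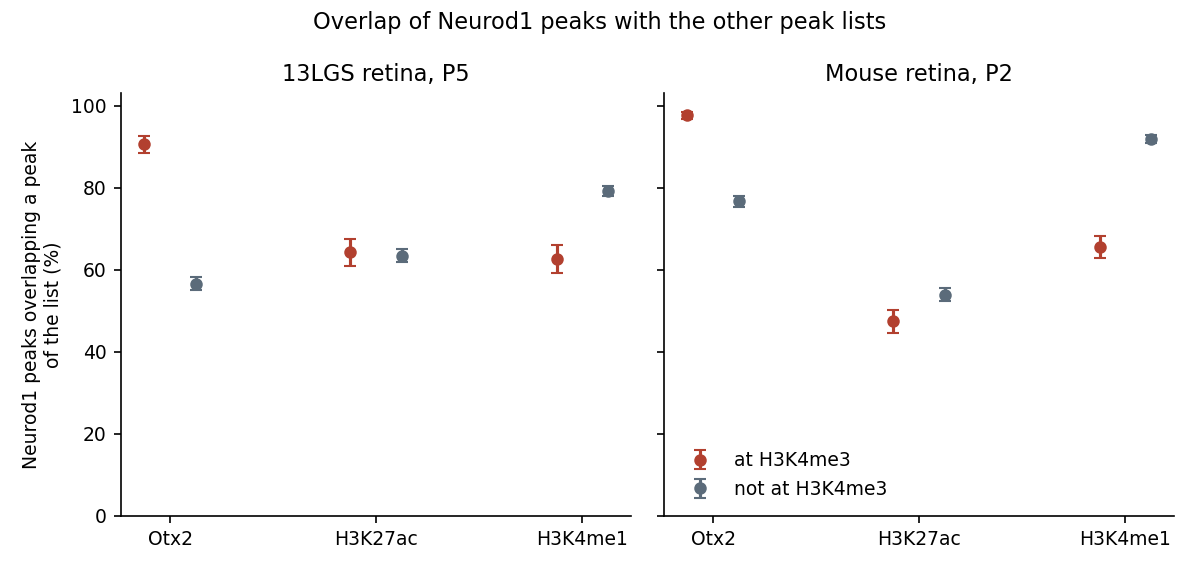
Share of Neurod1 peaks, in percent, that overlapped an Otx2, H3K27ac or H3K4me1 peak, for peaks at H3K4me3 (red) and the others (grey); bars are 95% Wilson intervals. The red points lie above the grey ones for Otx2, at 90.8% and 97.8%, and below them for H3K4me1, at 62.6% and 65.6%.

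All 3 lists together covered 354 of the peaks at H3K4me3 in 13LGS (44.1%) and 472 in mouse (38.8%). These were the peaks of higher Neurod1 fold, with medians of 3.76 and 3.78, whereas those joined by Otx2 alone, 149 in 13LGS and 318 in mouse, had medians of 3.05 and 2.99. H3K27ac overlapped 79.1% of the 268 strongest 13LGS peaks (73.8 to 83.5) and 53.0% of the 268 weakest (47.0 to 58.9). In mouse it overlapped 61.7% of the 405 strongest (56.9 to 66.3) and 33.6% of the 405 weakest (29.1 to 38.3). H3K4me1 followed the same order, with 77.6% and 49.6% in 13LGS and 78.5% and 52.8% in mouse. A wider peak meets others more readily, and the part of peak width was not tested here.

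The strongest Neurod1 peaks had a lower median H3K4me3 fold than the whole set. In the 10 strongest of 13LGS, H3K4me3 was enriched 2.19-fold to 8.33-fold with a median of 3.26, against a median of 15.2 over all 803, and all 10 carried Otx2, H3K27ac, and H3K4me1. In mouse, the 10 strongest ranged from 2.74-fold to 106-fold H3K4me3 with a median of 5.99, against 17.7 over all 1215, and all 10 likewise carried the other lists. The mouse peaks at Mycn (106-fold H3K4me3), Tpd52 (19.5-fold), and Tmem201 (9.55-fold) were those of these 10 above 8-fold. The Spearman correlation of the folds was -0.15 over the 803 peaks and -0.14 over the 1215, as a description across peaks that share libraries and IgG. Whether the peaks form separate groups by H3K4me3 fold was not tested. For description they were split at an H3K4me3 fold of 8, a limit read off the plot after seeing it. Below it lay 265 of the 803 (33.0%) in 13LGS and 305 of the 1215 (25.1%) in mouse, with H3K4me1 at 84.5% and 88.9% of them. Above it H3K4me1 overlapped 51.9% and 57.8%. H3K4me3 peaks without Neurod1 were below the limit in 37.1% of cases in 13LGS and 33.4% in mouse.

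**Figure D2:**
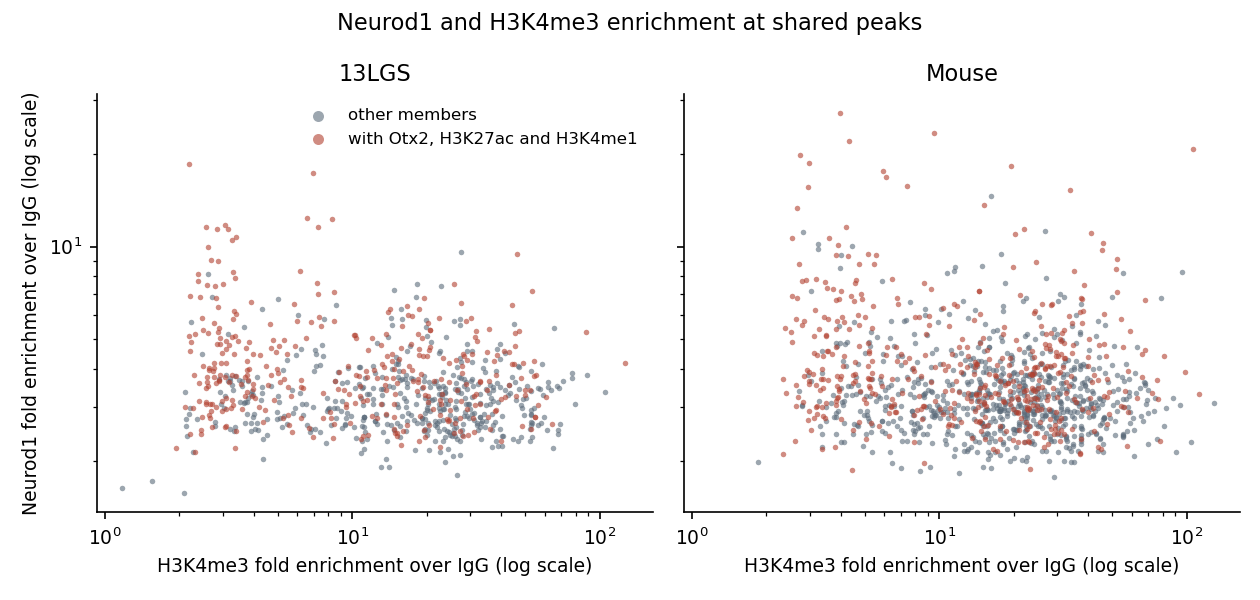
Neurod1 fold over IgG against the fold of the H3K4me3 peak it overlaps, both on log scales, with 1 point per Neurod1 peak; red points also overlap Otx2, H3K27ac, and H3K4me1. The 10 highest points of 13LGS lie at 8.33-fold H3K4me3 or below, whereas those of mouse reach 106-fold.

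Counted over H3K4me3 peaks, those with Neurod1 differed from those without it. Not all of these peaks need be promoters. Of the mouse Neurod1 peaks under H3K4me3 below 8-fold, 48.2% lay within 1000 bp of a protein-coding start site, against 83.1% at or above it. H3K27ac overlapped 72.8% of the 784 in 13LGS (69.6 to 75.8) and 38.8% of the 17236 without Neurod1, with 40.3% of all H3K4me3 peaks as background. In mouse the shares were 56.6% (53.8 to 59.5) and 26.5%, with a background of 29.0%. Otx2 overlapped 94.4% and 61.5% in 13LGS (62.9% of all) and 98.2% and 76.8% in mouse (78.6% of all). H3K4me1 differed less, with 86.4% and 76.5% in 13LGS (76.9% of all) and 92.8% and 87.7% in mouse (88.1% of all). H3K4me3 peaks with Neurod1 were wider, with medians of 1428 bp against 1111 bp in 13LGS and 1739 bp against 1312 bp in mouse, and a wide peak overlaps others more easily.

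The differences in H3K27ac and Otx2 were present at every width. Among the narrowest 3604 H3K4me3 peaks of 13LGS, H3K27ac overlapped 76.7% of those with Neurod1 (68.3 to 83.3) and 21.4% of those without. Among the widest 3604, it overlapped 82.4% (77.1 to 86.7) and 67.1%. In mouse the values were 63.6% (55.8 to 70.8) and 15.5% among the narrowest 2814, and 64.1% (59.3 to 68.6) and 47.6% among the widest. For H3K4me1, by contrast, the share was higher with Neurod1 in the narrower bins of 13LGS, up to the third with 85.1% (77.7 to 90.4) and 75.7%, and in the narrowest bin of mouse, with 90.9% (85.3 to 94.5) and 77.6%. In the fourth bin of 13LGS the shares were 80.5% (73.9 to 85.7) with and 85.2% without Neurod1, a difference in the other direction but within the counting error. In the other mouse bins the share without Neurod1 also lay inside the interval of the share with it, as in the widest peaks of 13LGS, with 94.3% (90.6 to 96.6) and 93.9%. The share of H3K4me3 peaks with Neurod1 itself was 3.33% among the narrowest and 6.77% among the widest in 13LGS, and 5.47% and 14.5% in mouse.

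**Figure D3:**
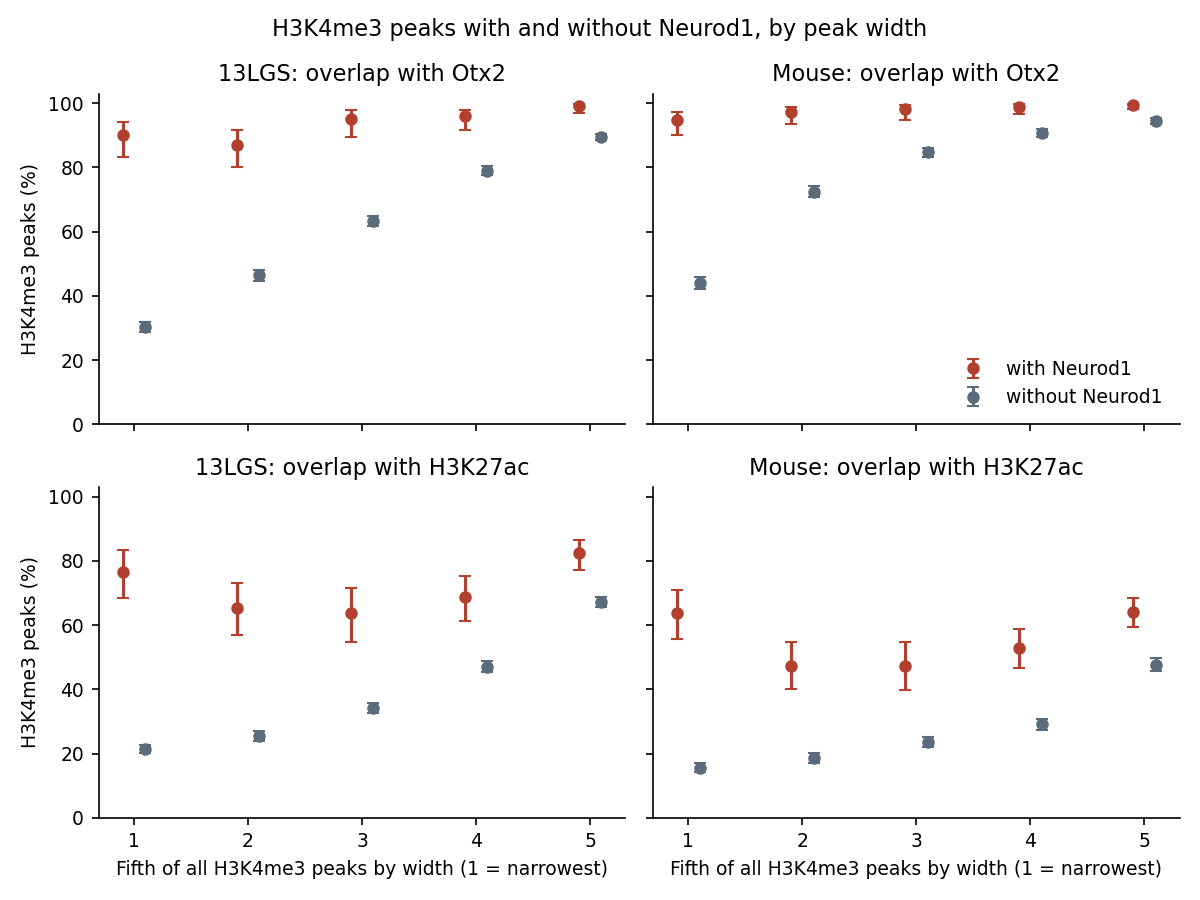
Share of H3K4me3 peaks, in percent, that overlapped Otx2 (top) or H3K27ac (bottom), in 5 bins of equal size from the narrowest to the widest H3K4me3 peaks, with Neurod1 (red) and without (grey); bars are 95% Wilson intervals. Red points lie above grey ones in every bin, and the gap is smallest in the widest bin, where H3K27ac was at 82.4% and 67.1% in 13LGS.

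The mouse annotation (GENCODE M21) showed how far the H3K4me3 overlap stands for a promoter. The Neurod1 summit lay within 1000 bp of a protein-coding start site for 903 of 1215 (74.3%, 71.8 to 76.7), compared with 7.31% of the other Neurod1 peaks (6.50 to 8.22). With start sites of every gene type, the shares were 78.5% and 11.2%. Of the 903, 53.8% lay downstream of the start site, and the median position was 21 bp downstream, with quartiles at 198 bp upstream and 155 bp downstream. Over all 1215, 36.5% of summits were in introns of protein-coding genes, 25.9% between genes, 20.8% in UTRs, and 7.33% in coding exons.

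**Figure D4:**
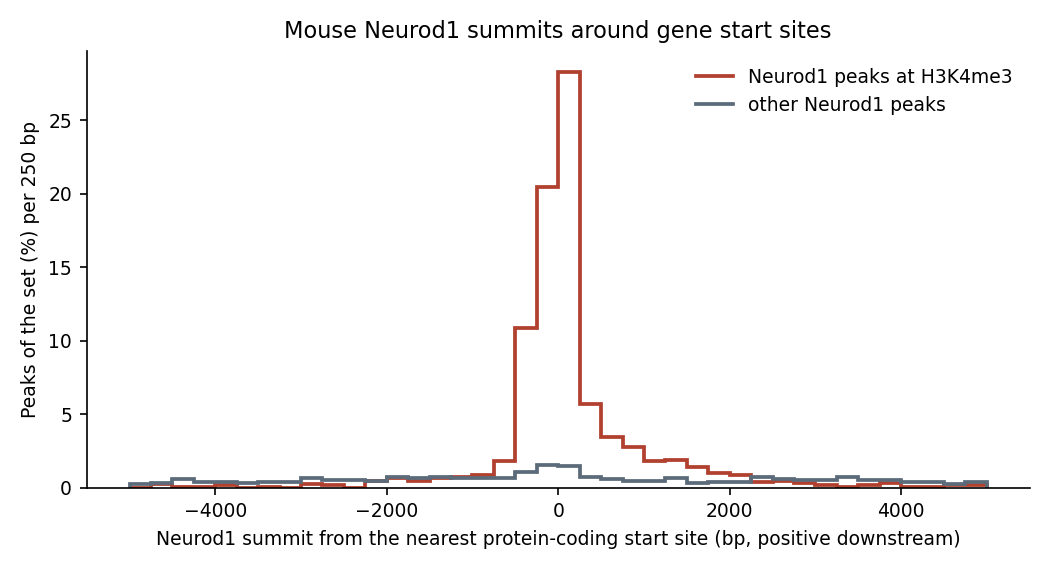
Position of mouse Neurod1 summits relative to the nearest protein-coding start site (bp, positive downstream), as the percent of each set per 250 bp, for peaks at H3K4me3 (red) and the others (grey). The red line peaks in the bins on either side of the start site, and 74.3% of that set lies within 1000 bp.

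The remaining 312 lay farther away and differed in their marks. Their median H3K4me3 fold was 7.82, against 19.8 for those near a start site, and H3K27ac overlapped 62.2% (56.7 to 67.4) against 42.3% (39.1 to 45.6). H3K4me1 overlapped 85.3% (80.9 to 88.8) against 58.8% (55.6 to 62.0). Otx2 differed little, with 96.8% and 98.1%. CAGATG occurred in 46.2% of the distant windows (40.7 to 51.7) and in 29.5% of the near ones (26.6 to 32.5). Of the 50 strongest peaks, 25 lay near a protein-coding start site (95% interval 36.6% to 63.4%), so that the word promoter fits a smaller share of the strongest peaks than of the whole set.

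The 6 strongest mouse peaks were all distant from protein-coding start sites, and their genes were named after the values were seen. The first, 27.4-fold at chr2:79399078-79400248, lay in an intron 6584 bp from the nearest protein-coding start site. That site was one of Cerkl, a ceramide kinase-like gene mutated in human retinal degeneration. For this Neurod1 peak, the marks were as follows. Its H3K4me3 peak was 250 bp wide and 3.97-fold, whereas Otx2 reached 40.5-fold. A 20.9-fold peak lay in an intron of Mycn, a proto-oncogene of progenitors, 2245 bp downstream of the start site and within a 5590 bp domain of 106-fold H3K4me3. A 19.9-fold peak lay 2803 bp downstream of the start site of Ptgds, a prostaglandin synthase, with H3K27ac at 11.2-fold.

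Near start sites, the 15 strongest mouse peaks ranged from 18.3-fold to 9.47-fold. They lay at Tpd52, Gnb3, Inpp4b, Fam110a, Cdk2ap1, Trp53inp2, Tecpr1, Btbd17, Numbl, Ubap1l, Cerkl, Arhgef10l, Riok3, Sbk1, and Baz1b. Tpd52 (ENSMUSG00000027506) had 18.3-fold Neurod1 at chr3:8963437-8965222, 318 bp upstream of its start site, with 32.9-fold Otx2 and 19.2-fold H3K4me1. Gnb3 (ENSMUSG00000023439), the transducin beta subunit of cones, had 17.6-fold Neurod1 at chr6:124839892-124841258, with a summit 452 bp upstream between genes, 26.2-fold Otx2 and 5.90-fold H3K4me3. Trp53inp2 and Tecpr1, both genes of autophagy, had 14.7-fold and 13.6-fold Neurod1, and Trp53inp2 had neither H3K27ac nor H3K4me1. Baz1b, a subunit of a chromatin remodelling complex, also lacked both marks at 9.47-fold Neurod1. All 15 overlapped Otx2, between 4.83-fold at Numbl and 32.9-fold at Tpd52.

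At the other extreme, the lowest Neurod1 fold was 1.78, 122 bp upstream of Ddit4, a stress-induced inhibitor of mTOR signalling. The highest H3K4me3 fold, 129, belonged to a 7156 bp domain at Trib2, a pseudokinase gene, whose Neurod1 peak was 3.10-fold. Thus the strongest H3K4me3 went with a Neurod1 fold below the median of 3.31.

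Genes were then read by pathway. Of 11674 mouse protein-coding genes with an H3K4me3 peak over a start site, called marked below, 955 (8.18%) had a Neurod1 peak of the set within 1000 bp of a start site. This share grew with the width of the gene's H3K4me3 domain, from 4.33% of the 2335 genes with the narrowest to 13.0% of the 2334 with the widest. The shares below are set beside the 8.18% and were not tested.

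The Notch pathway, in which membrane ligands of one cell activate receptors of the next and so hold it back from differentiating, had the highest share of the lists, 10 of 25 marked genes (40.0%, 23.4 to 59.3). The median H3K4me3 width of its genes was 2735 bp, against 1619 bp over all marked genes. Among genes of the ligand family, not all of which need activate a receptor, Dll3 had 6.98-fold Neurod1, 54 bp downstream of its start site. Dll1 had 4.06-fold and Dll4 2.95-fold. Mib1, the ubiquitin ligase that activates the ligands, had 6.80-fold. Among modifiers of the receptor, the fringe glycosyltransferases Mfng and Lfng had 3.71-fold and 2.71-fold, and the receptor gene Notch1 had 2.12-fold. Beyond the limit of 1000 bp, Notch1 had a stronger peak of 6.13-fold 1502 bp downstream of its start site and Dll4 one of 4.82-fold 1506 bp upstream. Numbl, an inhibitor of the pathway, had the highest value, 11.4-fold Neurod1 66 bp upstream of its start site. Of the Hes and Hey factors, Heyl had 7.36-fold and Hes6, which opposes Hes1 and favours differentiation, 6.46-fold over a 2039 bp peak with 28.2-fold H3K4me3 and 7.71-fold H3K27ac. The classical effectors Hes1 and Hes5, the transcriptional mediator Rbpj, the receptors Notch2 and Notch3, and the ligands Jag1 and Jag2 were marked with H3K4me3 and had no Neurod1 peak of the set within 1000 bp, whereas Hes5 had one of 2.60-fold 2511 bp upstream.

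Of the 15 marked genes in the list of neurogenic bHLH factors, 3 (20.0%, 7.05 to 45.2) had such a peak. The list is broader than its name and also counts the related genes Tcf3, Tcf12, Id1, Id2, Id3, and Id4, which had none. Neurod1 itself had 11.1-fold at chr2:79456617-79457539, 362 bp upstream of its start site, under a 6165 bp domain of 40.9-fold H3K4me3 with 9.79-fold Otx2. The same peak lay 328 bp upstream of a start site of Cerkl, so that both genes count it. Tcf4, an E protein that pairs with neurogenic bHLH factors, had 7.71-fold Neurod1 and 2.79-fold H3K4me3, and Bhlhe22 had 3.13-fold. Neurod4, Neurog2, Atoh7, and Olig2 were marked and had none within 1000 bp. Neurod2, with the 4.40-fold peak given above, is not among the 15, because no H3K4me3 peak covered its start site.

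Photoreceptor TFs held 2 of 28 marked genes (7.14%, 1.98 to 22.7). These were Mef2d, an activator of photoreceptor genes, with 4.08-fold Neurod1 303 bp upstream of its start site, and Nrl, the determinant of rod fate, with 3.19-fold 37 bp downstream. Otx2, Crx, Prdm1, Thrb, Rxrg, and Mef2c were among the 26 without one within 1000 bp. Nr2e3 also counts among the 26, because its 5.81-fold peak lay 1158 bp upstream of the start site, and Crx had a 3.26-fold peak 1295 bp upstream. The outer segment and cilium list held 5 of 22 (22.7%, 10.1 to 43.4). They were Impg2, which encodes a proteoglycan of the matrix around photoreceptors (5.97-fold), Rpgrip1 of the connecting cilium (4.44-fold), the ciliary kinase gene Mak (4.44-fold), Prom1 of the disc membranes (4.05-fold), and the disc rim gene Rom1 (2.38-fold). The summits of Impg2 and Rpgrip1 lay 28 bp and 29 bp downstream of the start site. Of 33 annotated phototransduction genes, 10 were marked with H3K4me3 over a start site, and Gnb3 was the one of these 10 with a peak (10.0%, 1.79 to 40.4). The rod arrestin gene Sag is not among the 10, because no H3K4me3 peak covered its start site, although a 5.73-fold Neurod1 peak of the set lay 75 bp downstream of it. Sag was singled out after its values were seen.

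Neuronal differentiation genes had 5 of 26 (19.2%, 8.51 to 37.9). Srrm4, a neuronal splicing regulator, had 8.21-fold Neurod1 under 55.4-fold H3K4me3, and the TF gene Myt1 had 6.77-fold. Stmn1, which regulates microtubules, had 5.50-fold, Celf4 3.67-fold, and Sox11 3.17-fold. Synaptic genes had 3 of 22 (13.6%, 4.75 to 33.3), namely the calcium channel subunit gene Cacna2d4 (5.55-fold), the synaptic vesicle gene Syp (4.86-fold), and Stx3, the syntaxin of ribbon synapses (2.89-fold).

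Other lists were near or below the background. Cell cycle genes had 4 of 34 (11.8%, 4.67 to 26.6), with the antiproliferative gene Btg2 (4.40-fold) first, then the replication helicase gene Mcm2 (4.14-fold), E2f1 (3.81-fold), and Gadd45g (3.41-fold). Progenitor and Müller glia factors had 2 of 20 (10.0%, 2.79 to 30.1), Hmga1 (3.79-fold) and Prtg (3.22-fold). Mycn counts among those without, because its 20.9-fold peak lay 2245 bp from the start site. Factors of ganglion, amacrine, horizontal, and bipolar cells had 0 of 15, which allows a share of up to 20.4%, although the median H3K4me3 width of these genes was 4520 bp. Genes of the mitochondrial respiratory chain had 6 of 76 (7.89%, 3.67 to 16.2), led by Ndufb11 (4.76-fold), and ribosomal protein genes 3 of 80 (3.75%, 1.28 to 10.5), namely Rps10, Rps18, and Rpl10a, all at most 3.87-fold.

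**Figure D5:**
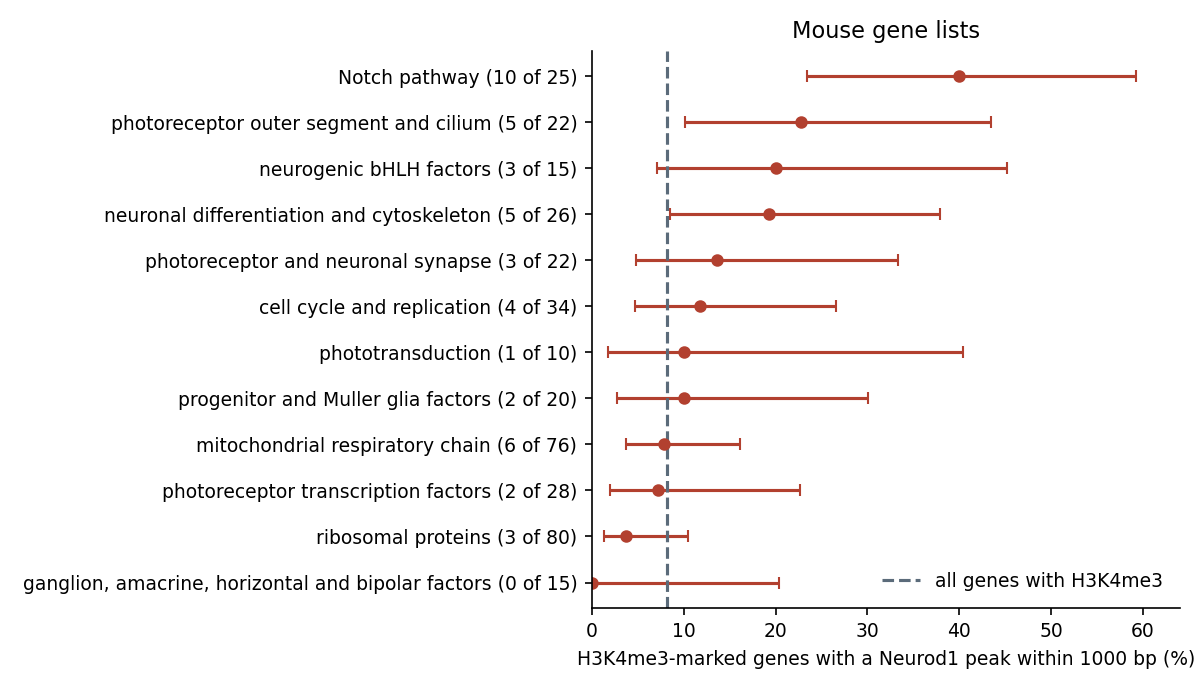
Share of mouse genes with H3K4me3 at a start site, in percent, that had a Neurod1 peak at H3K4me3 within 1000 bp, for 12 gene lists with their counts; bars are 95% Wilson intervals and the dashed line is the 8.18% of all marked genes. The Notch list lies farthest right at 40.0%, and most intervals are wide because the lists are short.

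In 13LGS, positions are given on the HiC_Itri_2 assembly, whose annotation was not used here. The strongest peak at H3K4me3, 18.6-fold at Itri7:6889351-6890350, had 2.19-fold H3K4me3 and 10.8-fold H3K4me1. The next, 17.4-fold at Itri4:102309305-102310483, had 6.92-fold H3K4me3 over 1485 bp and 22.4-fold Otx2. The 8 that followed had between 12.4-fold and 10.7-fold Neurod1. They were at Itri13:5058262-5059688, Itri7:47027303-47028092, Itri14:59214745-59215551, Itri2:216909885-216910852, Itri13:33334160-33335234, Itri6:1137322-1138625, Itri9:72512008-72512741, and Itri2:146078739-146079884. H3K27ac was enriched between 2.81-fold and 7.89-fold at these 10 peaks.

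Gene names for 13LGS came from the study's accessible elements of the start site class, 2005 elements of 733 genes, which cover only part of the genome. The paper examined such elements for genes with higher expression in 13LGS than in mouse, so the nameable genes may not stand for all genes. They overlapped 33 of the 803 peaks, none among the 10 strongest, and 32 of these carry a gene symbol used here. The strongest named peaks lay at Dkkl1 (7.44-fold), B3galt2, a galactosyltransferase (5.96-fold), Mxra8 (5.20-fold), Fam161a, a ciliary gene mutated in retinitis pigmentosa (5.10-fold), and Apip (5.04-fold). Kansl2, Exosc2, Cpeb4, Mylip, Itpkc, Ccdc61, Camk2n1, Fam98a, and G0s2 followed, none above 4.51-fold. Of these named 13LGS peaks, that of G0s2 was the one with no Otx2 peak. Genes of retinal interest chosen after their values were seen had low folds, among them the Notch ligand gene Jag1 (2.67-fold), the ribbon synapse gene Cplx3 (2.53-fold), and the cone nuclear receptor gene Rxrg (2.41-fold). Those of Rxrg and Jag1 had 11.1-fold and 18.2-fold H3K4me3.

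Among genes with a named 13LGS peak, 25 had H3K4me3 at a mouse start site. Of these, 3 (12.0%, 4.17 to 30.0) also had a mouse Neurod1 peak at H3K4me3. The share over all marked mouse genes was 8.18%, but those genes were not limited to the ones nameable in 13LGS. They were B3galt2 with 5.96-fold in 13LGS and 3.03-fold in mouse, Camk2n1, an inhibitor of the kinase CaMKII, with 4.06-fold and 3.18-fold, and Fam98a with 3.79-fold and 2.89-fold. Fam161a, Jag1, Cplx3, and Rxrg were marked in mouse and had no such peak there.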

How the data were processed

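Peak lists of 13LGS and mouse retina were used as deposited. Reads were trimmed (cutadapt 3.5, Trim Galore 0.6.4), aligned with Bowtie2 to GRCm38 or HiC_Itri_2, filtered with SAMtools 1.12, and deduplicated, and each target's libraries were given together to macs2, with IgG as control and a q-value limit of 0.05. The authors removed blacklisted and mitochondrial peaks for mouse only. Fold enrichment is the deposited ratio of signal to IgG, and significance is the −log10 q-value deposited by the authors. H3K27me3 and H3K9me3 were not analysed here.

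Overlaps (at least 1 bp), 95% Wilson and Newcombe intervals, and plots were made in Python 3.11.15 (pandas 2.3.3, NumPy 2.4.6, SciPy 1.17.1, matplotlib 3.10.9). The overlap code was checked on simulated intervals against bedtools 2.31.1, with 0 differences. Mouse genes came from GENCODE M21 and sequences from RefSeq GRCm38.p6; all 32851 promoter sequences matched that genome. A gene was marked when an H3K4me3 peak covered a protein-coding start site, and had a peak when a summit lay within 1000 bp of one. Named genes were the 15 strongest mouse peaks near start sites, up to 6 genes per list by fold, the extremes, and in 13LGS the 10 strongest peaks and up to 15 of those with a gene name. Some genes are not reported here. In the Notch list, all genes with a peak are given. The members and gene lists were chosen with earlier results of these data known, and the ribosomal list was narrowed after its values were seen to leave out kinases.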

Additional observations from a re-analysis of the deposited data

How the results depend on the processing

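Of 39 alternative settings, 4 stayed inside the 95% interval of the reported value and 35 moved outside it. Values are given for summit inside, at least 250 bp shared, and −log10 q of at least 5, in this order. The share of Neurod1 peaks at H3K4me3 was 15.6%, 8.89%, and 14.1% in 13LGS and 23.7%, 17.9%, and 22.0% in mouse. The share of H3K4me3 peaks with Neurod1 was 3.91%, 2.24%, and 2.07% in 13LGS and 7.54%, 5.79%, and 5.77% in mouse. Otx2 at these peaks was 88.5%, 85.3%, and 87.1% in 13LGS, and 95.3% (250 bp) and 93.5% (q) in mouse. H3K27ac was 58.1% (summit) and 59.9% (250 bp) in 13LGS, and 37.1%, 41.2%, and 33.7% in mouse. H3K4me1 was 49.1%, 55.1%, and 58.7% in 13LGS and 51.5%, 51.9%, and 57.3% in mouse. Near start sites the mouse share was 65.3% within 500 bp and 83.0% within 2000 bp, and the share of marked genes was 7.32% and 8.94%. CAGATG was found in 5.51% within 50 bp and 41.2% in the whole peak, and CAGCTG in 5.93% within 50 bp.

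The excess of Otx2 over the other Neurod1 peaks kept its direction under these 3 settings. With 250 bp shared, Neurod1 peaks narrower than that counted among the others without Otx2 or a mark, so peak width enters all differences at this setting. The H3K27ac difference was then 20.3 points in 13LGS and turned from -6.52 to 3.92 in mouse. The H3K4me1 difference turned from -16.7 to 4.11 points in 13LGS. The 13LGS H3K27ac difference was -0.62 points by summit and -4.32 by q. No paired analysis was possible because each list pools its libraries, and no replicate was left out for the same reason. Depth is unknown, so the absence of a peak does not show the absence of binding.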
